A study of Homo sapiens with 14 samples.

Results

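The set comprised 10 genes whose products catalyze steps of glycolysis, the pathway that turns glucose into pyruvate and lactate: HK2, GPI, PFKL, ALDOA, TPI1, GAPDH, PGK1, PGAM1, ENO1 and LDHA. They were taken by name, with earlier results of these data known. The entries carrying these symbols were taken from the deposited expression table of all samples, and all 10 were found among its 21574 genes. Values are in RPKM, reads per kilobase of transcript and 1000000 mapped reads.

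Glycolysis opens with an investment phase, in which hexokinase, glucose-6-phosphate isomerase, phosphofructokinase, aldolase and triosephosphate isomerase use ATP to phosphorylate a hexose, split it into trioses and interconvert these. In the payoff phase that follows, glyceraldehyde-3-phosphate dehydrogenase, phosphoglycerate kinase, phosphoglycerate mutase and enolase lead to pyruvate and return ATP, and lactate dehydrogenase regenerates NAD+. Tumor cells often run this pathway at a high rate even in oxygen, and many of its genes are known targets of HIF-1 and MYC.

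The study asked how ADAR1, the enzyme that converts adenosine to inosine in double-stranded RNA, affects RNA structure and expression. Control cells received scrambled siRNA and knockdown (KD) cells received siRNA against ADAR1, and all carried the label HepG2, a hepatocellular carcinoma line. In PARS-seq, poly-A RNA was cut in vitro with S1 nuclease, which prefers unpaired bases, or with RNase V1, which prefers paired bases, and 8 libraries were made, 2 for each nuclease and condition. RNA-seq had 1 library per condition, and Ribo-seq, which sequences ribosome-protected fragments, had 2 per condition. The methods call the replicates biological. Both the labels and the methods speak of stable transfection, and the methods add that the siRNA was delivered by nucleofection. An siRNA leaves some of its target, so the KD cells were no knockout.

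ADAR, the siRNA target, was examined first. Its PARS-seq level, given by the authors as the mean over the S1 and V1 library of each replicate, was 40.7 and 46.8 RPKM in control and 15.1 in both KD replicates. In RNA-seq the level was 54.8 RPKM with scrambled siRNA and 15.4 RPKM with siRNA against ADAR1. In Ribo-seq, ADAR was at 43.6 RPKM in control replicate 1 and 8.73 in KD replicate 1, but at 55.5 in control replicate 2 and 44.03 in the library labelled ADAR_KD replicate 2, a KD-to-control ratio of 0.794. The target was therefore far below control in every KD column except that of the Ribo-seq library labelled ADAR_KD replicate 2, and each direction drawn below from Ribo-seq rests in part on that library.

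The label of the cells was then compared with hepatocyte markers. None of 9 markers had a mean of 1 RPKM over the 10 columns. ALB, AFP, APOA1, APOB, TTR, SERPINA1, FGB and TF, which define liver cells and their secretions, stayed at or below 0.0821 RPKM in every column. HNF4A, whose entry is shared with a microRNA, reached 0.803 RPKM in RNA-seq of KD cells. The markers summed to 0.0698 to 0.109 RPKM in PARS-seq, 0.558 and 0.928 in RNA-seq, and 0 to 0.518 in Ribo-seq, where between 8 and 9 of the 9 were listed at 0. The defining transcripts of hepatocytes were thus absent or nearly absent, which goes against the label, and the cells are called here cells labelled HepG2. Of 8 markers of blood, endothelial, fibroblast and glial cells, COL1A1, a collagen gene, was the most abundant, with 9.75 to 54.7 RPKM, followed by DCN with 0.12 to 7.61 RPKM, while the other 6, PTPRC, CD3E, PECAM1, VWF, COL1A2 and GFAP, stayed at or below 0.275 RPKM. These 8 markers summed to 21.2 and 30.2 RPKM in PARS-seq control, 17.3 and 19.8 in PARS-seq KD, 58.0 and 43.1 in RNA-seq of control and KD, 20.1 and 14.7 in Ribo-seq control, and 19.8 and 11.3 in Ribo-seq KD. COL1A1 was lower in KD than in its matched control in all 5 pairs of columns. DCN was lower in 4 of them, with KD-to-control ratios of 0.390 and 0.400 in PARS-seq, but in Ribo-seq replicate 2 it was at 0.12 RPKM in control and 1.16 in KD. What part this had in the values of the glycolytic genes was not tested, and in bulk RNA fewer cells of a type cannot be told apart from less RNA per cell.

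The columns also differed in how completely genes were listed. An exact 0 in this table can be a failed estimate: 12 genes, among them TUBB, were listed at 0 in the 4 PARS-seq columns and both Ribo-seq replicate 2 columns, but at 10 RPKM or more in RNA-seq and Ribo-seq replicate 1. None of the glycolytic genes was among these 12. On chromosome 6 lie 11 of them, and 1 could not be matched to a chromosome. The reverse, 0 in RNA-seq and Ribo-seq replicate 1 and at least 10 RPKM in the other 6 columns, held for 2 genes. The same split sets PARS-seq and Ribo-seq replicate 2 apart from RNA-seq and Ribo-seq replicate 1, so the comparisons below between assays, of Ribo-seq with RNA-seq and of the Ribo-seq replicates may include a difference in processing, which was not tested. The number of reads behind each value is not given, although the paper lists the uniquely aligned reads of each PARS-seq library. Relative depth was inferred from the most common ratio of 2 columns among genes under 0.5 RPKM, assumed to reflect equal read numbers. By this, KD replicate 2 of Ribo-seq had 0.724 times the depth of its control, and KD replicate 1 had 1.41 times that of its control. Ribo-seq control replicate 2 had 3.34 times that of control replicate 1, and RNA-seq of KD had 0.742 times that of control. The ratio used was held by 89 of 389 to 177 of 374 such genes in Ribo-seq, and by 250 of 2852 in RNA-seq.

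All 10 genes were expressed, but their levels differed by more than 100-fold within most columns. GAPDH, which makes the first high-energy intermediate of the payoff phase, had the highest mean over the 10 columns, 1568 RPKM, and ranked 17 among all genes. ENO1 followed with a mean of 760.3 RPKM, PGK1 with 569.5, ALDOA with 417 and LDHA with 274. GPI and TPI1 had means of 175 and 170.1 RPKM and PFKL of 57.4. The lowest means belonged to PGAM1 with 12.9 RPKM and HK2 with 7.40. The set held 0.493 to 0.809% of all RPKM in PARS-seq, 1.39 and 1.57% in RNA-seq and 0.679 to 1.49% in Ribo-seq.

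The order of the levels depended on the assay. In RNA-seq of control cells, GAPDH was followed by ENO1, ALDOA, PGK1, TPI1, GPI, LDHA, PFKL, PGAM1 and HK2. In the 2 PARS-seq control columns it was followed by PGK1, ENO1, LDHA, ALDOA, GPI, TPI1, PFKL, PGAM1 and HK2. Some neighbors in this order were not separated by the spread of the replicates: PGK1, with 913 and 521 RPKM, overlapped ENO1, with 525 and 395. LDHA, with 358 and 385 RPKM, did not overlap ALDOA, with 297 and 251, and HK2, with 5.28 and 5.62, lay below PGAM1, with 8.88 and 6.94. In the PARS-seq KD columns ALDOA dropped from rank 5 to rank 7, below GPI and TPI1, and HK2 and PGAM1 exchanged the last ranks. In KD replicate 1 PGK1, with 639.8 RPKM, also stood above GAPDH, with 626.

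**Figure D1:**
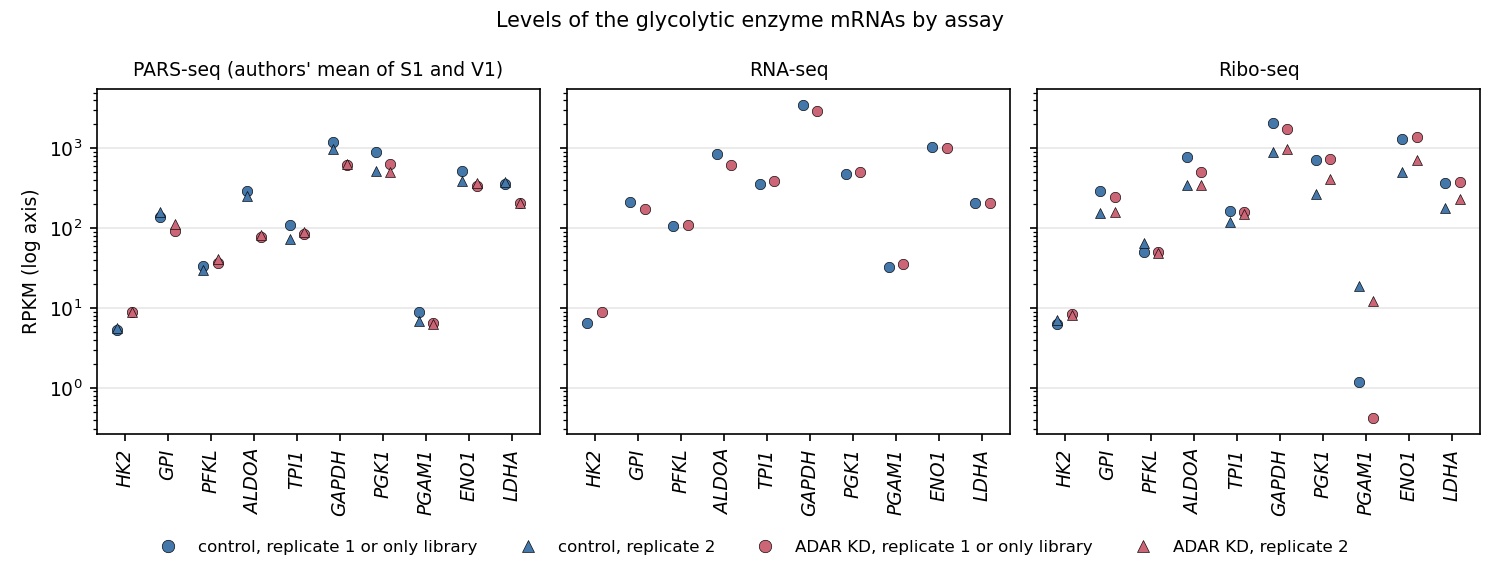
Levels of the 10 glycolytic enzyme mRNAs in RPKM on a log axis, with 1 panel per assay; each point is 1 column of the table, blue for control and red for KD, and PARS-seq points are the authors' means over S1 and V1. ALDOA in PARS-seq stands at 297 and 251 RPKM in control and at 78.4 and 82.6 in KD, and PGAM1 in Ribo-seq ranges from 0.414 to 18.9 RPKM.

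Among the genes of the investment phase, ALDOA showed the widest gap between control and KD in PARS-seq. ALDOA encodes aldolase A, which splits fructose-1,6-bisphosphate. Its PARS-seq level was 297 and 251 RPKM in the 2 control replicates and 78.4 and 82.6 RPKM in the 2 KD replicates, so that control was 3.79 and 3.04 times KD and the groups did not overlap. In RNA-seq it was 846 RPKM in control and 625 in KD, lower in KD as well but by less, 26.2%. In Ribo-seq it was 787 RPKM in control replicate 1 and 514 in KD replicate 1, and 344 and 349 RPKM in replicate 2. The Ribo-seq replicates thus differed: replicate 1 was lower in KD, and the library labelled ADAR_KD replicate 2 stood level with its control.

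HK2, GPI and PFKL differed less than ALDOA in PARS-seq. HK2 encodes an inducible hexokinase that traps glucose in the cell. It was the single member that was higher in KD in all 5 pairs of columns: 5.28 and 5.62 RPKM in PARS-seq control against 8.89 and 8.95 in KD, 6.40 against 8.97 in RNA-seq, 6.23 against 8.43 in Ribo-seq replicate 1 and 7.09 against 8.15 in replicate 2. The deposited expression values do not give the number of reads behind these low levels. GPI encodes the isomerase that forms fructose-6-phosphate. It was lower in KD in PARS-seq, with 137 and 161 RPKM in control against 91.8 and 113 in KD, and in RNA-seq, with 216 against 176. Ribo-seq of GPI gave 291 RPKM in control and 243 in KD replicate 1, and 157 and 158 in replicate 2. PFKL encodes the liver-type subunit of phosphofructokinase, the main point of control of the pathway. Its RNA-seq level was 108 RPKM in both conditions. In PARS-seq it was 33.6 and 30.2 RPKM in control and 36.3 and 41.5 in KD.

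Of the genes of the payoff phase, GAPDH was lower in KD in most pairs. Its PARS-seq level was 1208 and 975 RPKM in control and 626 and 640.5 in KD, and its RNA-seq level was 3539.9 RPKM in control and 2989 in KD. Ribo-seq gave 2058 RPKM in control against 1744 in KD in replicate 1, and 915 against 985 in replicate 2. GAPDH is commonly used as a reference for normalization, and here its PARS-seq groups did not overlap. PGK1 encodes the kinase of the first ATP-yielding step. It was at 913 and 521 RPKM in PARS-seq control and 639.8 and 507 in KD, so the groups overlapped. In RNA-seq PGK1 was close between conditions, at 480.0 RPKM in control against 502 in KD.

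TPI1, ENO1 and PGAM1 differed less than GAPDH in PARS-seq. TPI1, which interconverts the trioses, was at 109 and 73.9 RPKM in control and 85.6 and 89.9 in KD. ENO1, the enolase gene, was at 525 and 395 RPKM in control and 337 and 373 in KD. PGAM1, the mutase gene, was at 8.88 and 6.94 RPKM in control and 6.43 and 6.27 in KD. The groups overlapped for TPI1, and for ENO1 and PGAM1 they lay apart by less than the 2 control replicates differed. In RNA-seq the 3 genes stood close together between conditions, with 358 and 386 RPKM for TPI1, 1050.05 and 1004 for ENO1 and 32.3 and 35.5 for PGAM1.

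LDHA, which encodes the M subunit of lactate dehydrogenase, differed between conditions in PARS-seq and was level in RNA-seq. It was at 358 and 385 RPKM in control and at 205 and 206 in KD, with no overlap, whereas RNA-seq gave 209 and 207 RPKM. In Ribo-seq it was at 367 RPKM in control and 383 in KD replicate 1, and at 179.8 and 235 in replicate 2, higher in both KD libraries. The PARS-seq difference of LDHA thus had no counterpart of its size in RNA-seq or Ribo-seq, although the difference between the assays was not tested.

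To set these values against the rest of the transcriptome, log2 ratios of KD to control were taken after 1 RPKM was added to each value, which understates the changes of low genes. A gene was counted where every available replicate differed by at least 1.5-fold in the same direction, with no test; the PARS-seq libraries are tested below through their read starts, and RNA-seq had 1 library per condition. In PARS-seq, 3 of the 10 genes, ALDOA, GAPDH and LDHA, were lower in KD by this rule, against 5.81% of 11368 genes with a mean of at least 1 RPKM. HK2 alone was higher, against 5.76% of all genes, and it no longer passed with 5 RPKM added or relative to the median of all genes. In RNA-seq none of the 10 passed in either direction, against 4.49% of all genes lower and 3.86% higher. In Ribo-seq PGAM1 alone was lower in both replicates, against 1.78% of all genes, and none was higher, against 2.6%. With 5 RPKM added, an alternative chosen after seeing the data, PGAM1 no longer passed and 0 of the 10 were lower.

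The medians showed the same contrast between assays. In PARS-seq the median log2 ratio of the 10 genes was −0.54 in replicate 1 and −0.11 in replicate 2, beside 0.03 and 0.04 for all 11368 genes, and 8 and 7 of the 10 lay below the median of all genes. In RNA-seq it was −0.01, as for all genes. In Ribo-seq it was −0.01 in replicate 1 and 0.14 in replicate 2, again equal to the medians of all genes. The PARS-seq replicates differed from each other most for ENO1, with log2 ratios of −0.64 and −0.09, TPI1, with −0.35 and 0.28, and PGK1, with −0.51 and −0.04. The central 90% of all genes lay between −0.81 and 0.76 in replicate 1 and between −0.73 and 0.70 in replicate 2. ALDOA, with −1.91 and −1.59, lay below this range in both replicates, GAPDH, with −0.95, in replicate 1, and LDHA, with −0.90, in replicate 2.

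**Figure D2:**
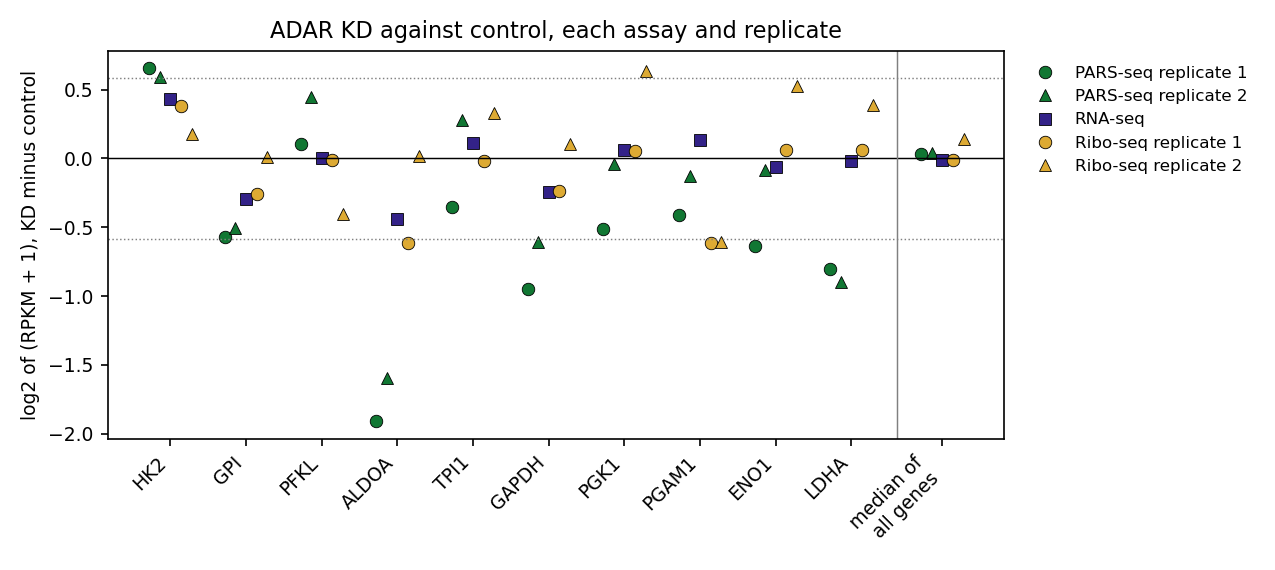
Log2 ratio of KD to control for each of the 10 genes, on RPKM with 1 added, in each assay and replicate; the last position gives the medians of all 11368 genes, and the dotted lines mark 1.5-fold. ALDOA lies lowest, at −1.91 and −1.59 in PARS-seq, and the RNA-seq squares of all 10 genes stay between −0.44 and 0.43.

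The Ribo-seq difference could be tested over all genes, with 2 libraries per condition. By limma with a mean trend on log2(RPKM + 1) and Benjamini-Hochberg adjustment, 0 of 10880 genes tested passed an adjusted p of 0.05, which is 0%, and 0 of the 10 glycolytic genes passed; at an unadjusted p under 0.05 there were 43 genes and none of the 10. Without the library labelled ADAR_KD replicate 2, limma again called 0 genes, with 83 at an unadjusted p under 0.05. Among the 10, PGAM1 had the largest log2 difference, −0.61 ± 1.45 (SE, n = 2 per condition, limma adjusted p = 1.00), and it was lower in both KD replicates. The standard errors of the 10 genes were 0.38 to 1.45. With the replicate number as a block, limma called 143 genes and none of the 10, and the standard error of PGAM1 was 0.316 (limma adjusted p = 0.535); the labels do not say that libraries of 1 number were handled together. For a single gene, an exact permutation test of 2 against 2 libraries cannot go below p = 0.333.

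PGAM1 differed more between the Ribo-seq replicates than between the conditions. It was at 1.17 RPKM in control and 0.414 in KD in replicate 1, and at 18.9 and 12.1 RPKM in replicate 2. ENO1 and PGK1 were also set apart by replicate: ENO1 was at 1316 and 1377 RPKM in control and KD of replicate 1, and at 503 and 724 in replicate 2, and PGK1 was at 712 and 737 RPKM in replicate 1, and at 268 and 416 in replicate 2. PFKL, with 50.8 and 50.5 RPKM in replicate 1 and 65.6 and 49.4 in replicate 2, and TPI1, with 163 and 161 RPKM in replicate 1 and 121 and 153 in replicate 2, varied less. For ENO1 and PGK1 the library labelled ADAR_KD replicate 2 was higher than its control and KD replicate 1 stood close to its own.

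The Ribo-seq level divided by the RNA-seq level of the same condition estimates how densely an mRNA is occupied by ribosomes. RNA-seq had 1 library per condition, so the ratio is given for each Ribo-seq library and was not tested. On the log2 scale with 1 RPKM added, LDHA had the highest ratio of the set in 3 of the 4 libraries, with 0.81 in control and 0.89 in KD of replicate 1 and −0.22 and 0.19 in replicate 2. GAPDH had −0.78 in both conditions of replicate 1 and −1.95 and −1.60 in replicate 2. TPI1 ranged from −1.55 to −1.13 and PFKL from −1.12 to −0.71. These 3 genes were thus below 0 in all 4 libraries.

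PGAM1 stood apart with −3.94 and −4.69 in control and KD of replicate 1, against −0.74 and −1.48 in replicate 2. PGK1, with 0.57 and 0.55 in replicate 1 and −0.84 and −0.27 in replicate 2, ENO1, with 0.33 and 0.46 and then −1.06 and −0.47, and GPI, with 0.43 and 0.46 and then −0.46 and −0.15, had opposite signs in the 2 replicates. ALDOA had −0.10 and −0.28 in replicate 1 and −1.29 and −0.84 in replicate 2, and HK2 stayed between −0.12 and 0.13. The median of the 10 genes was −0.07 in control and −0.18 in KD of replicate 1, beside −0.34 and −0.31 for all genes, and −0.79 and −0.65 in replicate 2, beside −0.53 and −0.35. The set was therefore above the median of all genes in replicate 1 and below it in replicate 2.

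In replicate 1 the log2 ratio in KD less that in control was −0.18 to 0.13 for 9 of the 10 genes and −0.75 for PGAM1. In replicate 2 it was −0.41 to 0.59 for the same 9 genes and −0.74 for PGAM1. The median differences were −0.01 and 0.33 for the set, and 0.00 and 0.18 for all genes. The likeness of the PGAM1 values depends on the 1 RPKM added, since its Ribo-seq level in replicate 1 was near that value: with nothing added, its Ribo-seq to RNA-seq ratio in KD was 0.323 times that in control in replicate 1 and 0.582 times in replicate 2.

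**Figure D3:**
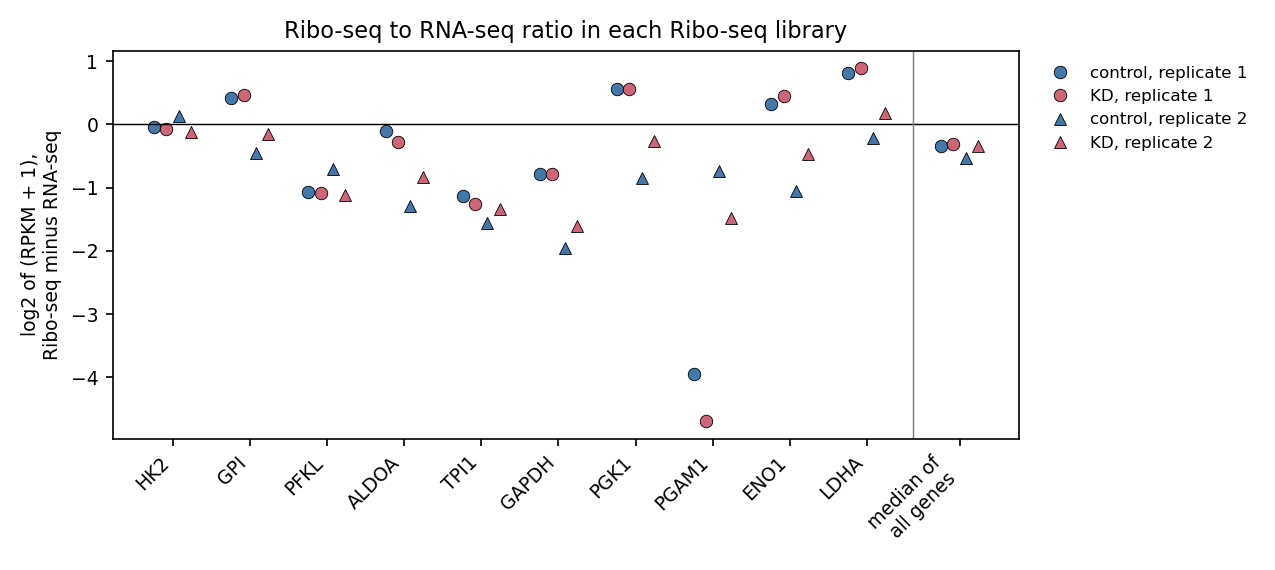
Log2 ratio of Ribo-seq to RNA-seq RPKM, with 1 added, for each gene and Ribo-seq library, in blue for control and red for KD; circles are replicate 1, triangles replicate 2, and the last position gives the medians of all genes. For GAPDH, ENO1, PGK1 and ALDOA the replicates lie farther apart than the conditions, and PGAM1 reaches −4.69.

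The PARS-seq libraries were examined singly through their read starts, the number of reads that begin at each base of a UCSC transcript. Gene symbols and transcript identifiers could be matched for 6 of the 10 genes: GAPDH (uc001qop.2), LDHA (uc010rdd.2), ALDOA (uc010veg.2), TPI1 (uc001qrk.4), PGAM1 (uc001knh.3) and PFKL (uc002zel.3). In hg19, ALDOA lies at chr16:30075485-30081778, GAPDH at chr12:6643678-6647540 and LDHA at chr11:18416107-18429972. The libraries held 96618292 to 214584779 read starts, of which 26.0 to 54.7% fell on a single transcript, uc022brd.2. ALDOA had 69538 and 48362 read starts in S1 control and 13837 and 11830 in S1 KD, and 66265 and 62579 in V1 control and 27180 and 20441 in V1 KD. Scaled per 1000000 read starts of each library, these are 659 and 393 against 99.5 and 122 for S1, and 585 and 537 against 127 and 167 for V1. KD was below control for both nucleases and in both replicates, with no overlap.

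GAPDH and LDHA were lower in the same libraries. GAPDH had 2540.3 and 1347 read starts per 1000000 in S1 control against 769.7 and 833 in S1 KD, and 2817 and 2139.9 in V1 control against 1101 and 1343 in V1 KD. LDHA had 1021 and 865 per 1000000 in S1 control against 431 and 449.8 in S1 KD, and 1052 and 1011 in V1 control against 433 and 534 in V1 KD. The groups did not overlap for either gene with either nuclease. How many of all genes or transcripts had groups without overlap was not counted, here or for the RPKM values above. With 2 against 2, such a separation reaches only p = 0.333 in a two-sided exact permutation test. TPI1 overlapped in S1, with 612 and 272 per 1000000 in control and 288 and 296 in KD, as did PGAM1, with 203 and 122 against 109.9 and 124.5, and PFKL, with 76.7 and 53.8 against 63.4 and 78.7. In V1, TPI1 and PFKL overlapped as well, whereas PGAM1 did not, with 159.7 and 105.3 per 1000000 in control against 82.2 and 94.8 in KD. Scaled by totals without uc022brd.2, PFKL no longer overlapped in S1, with 103.8 and 83.9 in control against 115.3 and 136.3 in KD.

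In limma on log2 read starts over 4721 transcripts, S1 nuclease called 707, or 15%, at an adjusted p of 0.05, of which 673 (14.3%) were lower in KD and 34 (0.72%) higher. With TMM scaling in place of library totals, the split was 438 lower and 305 higher, and with totals without the most covered transcript it was 562 and 193. Among the 6 genes, 3 fell: ALDOA by 2.20 ± 0.29 on the log2 scale (SE, limma adjusted p = 1.26e-11), GAPDH by 1.21 ± 0.31 (adjusted p = 0.00173) and LDHA by 1.09 ± 0.29 (adjusted p = 0.00333), each with n = 2 per condition and lower in both replicates. The median of all transcripts was itself at −0.42, against 0.00 with TMM scaling, and relative to it ALDOA was at −1.79, GAPDH at −0.79 and LDHA at −0.68. TPI1, with −0.48, PGAM1, with −0.43, and PFKL, with 0.14, did not pass. Relative to the same median, TPI1 was at −0.07, PGAM1 at −0.01 and PFKL at 0.55.

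The S1 call of ALDOA held under each alternative tried, and those of GAPDH and LDHA did not. Leaving out a library leaves 1 in its condition, which is then assumed to vary like the other condition. GAPDH lost its call without S1 control replicate 1 (limma adjusted p = 0.0735), without KD replicate 1 (0.288) and without KD replicate 2 (0.258), in a range over 8 alternatives of 1.37e-07 to 0.288. Its log2 difference was −0.75 without control replicate 1, and −1.15 and −1.27 without either KD replicate, where the standard error rose from 0.31 to 0.49 and 0.50. LDHA lost it without KD replicate 1 (limma adjusted p = 0.303), without KD replicate 2 (0.310) and with TMM scaling (0.0627), in a range of 0.000115 to 0.310; its log2 differences without either KD replicate were −1.06 and −1.12, with standard errors of 0.46 and 0.47, and −0.67 with TMM scaling. Without control replicate 2, TPI1 (limma adjusted p = 0.000650, highest alternative 0.901) and PGAM1 (0.0116, highest alternative 0.991) passed as well. Over all transcripts, 2330 were called without control replicate 2, 93 without KD replicate 1 and 75 without KD replicate 2. Control replicate 1 listed 4722 transcripts, while the other 7 libraries listed 21052 to 22402.

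For V1, limma called 1681 of 16885 transcripts, or 9.96%, of which 1332 (7.89%) were lower in KD and 349 (2.07%) higher, and the split became 991 lower and 677 higher with TMM scaling, and 894 and 891 with totals without the most covered transcript. Of the 6 genes, 2 fell: ALDOA by 1.95 ± 0.35 on the log2 scale (SE, n = 2 per condition, limma adjusted p = 1.85e-06) and LDHA by 1.102 ± 0.37 (limma adjusted p = 0.0311), lower in both replicates. GAPDH, with −1.01 ± 0.39 (limma adjusted p = 0.0783), missed the threshold although its groups did not overlap. The median of all transcripts was −0.14, and relative to it ALDOA was at −1.81, LDHA at −0.97 and GAPDH at −0.88. PGAM1, with −0.56, TPI1, with −0.21, and PFKL, with −0.17, did not pass. Relative to the same median, PGAM1 was at −0.42, TPI1 at −0.07 and PFKL at −0.03. LDHA lost its V1 call without control replicate 1 (limma adjusted p = 0.349), control replicate 2 (0.130) and KD replicate 1 (0.134), without the filter on low values (0.0590) and with a replicate block (0.0963), in a range over 9 alternatives of 0.0248 to 0.349. Its log2 differences without these libraries were −1.07, −1.13 and −0.95. Without control replicate 1, 584 transcripts were called.

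Compared with GAPDH per base of transcript, the matched genes kept their positions in part. ALDOA had 20.7 and 23.3% of the read starts per base of GAPDH in S1 control and 10.3 and 11.8% in S1 KD, and 16.6 and 20.1% in V1 control and 9.20 and 9.94% in V1 KD. Its share was therefore about as much lower with either nuclease as in RPKM, where it stood at 24.6 and 25.8% with scrambled siRNA and at 12.5 and 12.9% after knockdown. The share of TPI1 was higher in KD, with 24.7 and 20.7% in S1 control and 38.4 and 36.4% in S1 KD, and those of PGAM1 and PFKL were higher as well. GAPDH itself was lower in KD, so these higher shares do not show higher levels of the 3 genes. PGAM1 had 3.91 to 11.9% of GAPDH by read starts but 0.712 to 1.03% by PARS-seq RPKM, a gap between the 2 counts of the same libraries. PGAM1 has 13 annotated pseudogenes named after it, GAPDH 65 and TPI1 4, and reads that fit several copies were not counted. What part this or the alignment had in the gaps was not tested, and the levels of these genes are uncertain.

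The lower read starts of ALDOA were spread along its transcript. When this transcript of 1751 bases was cut into 3 equal segments, the log2 ratio of KD to control ranged from −2.54 to −1.52 over the segments, nucleases and replicates, with the totals taken without the most covered transcript. The same range was −1.42 to −0.38 for GAPDH and −1.22 to −0.63 for LDHA, below 0 throughout, and it spanned 0 for TPI1, PGAM1 and PFKL. The profiles were about as alike between conditions as between replicates. Across the 1366 to 2924 bases of a transcript, Spearman's rho between libraries of the same nuclease and replicate number was 0.581 to 0.979 between control and KD, and between replicates of 1 condition it was 0.588 to 0.971. Bases of a transcript are not independent, and these values describe the profiles only.

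S1 and V1 cut the transcripts at different places, with rho of 0.113 for PFKL up to 0.712 for LDHA. Some single bases took a large share of the S1 read starts. Base 563 of the TPI1 transcript took 23.8 to 30.7% in the 4 S1 libraries, base 810 of ALDOA took 11.6 to 17.3%, and base 485 of PGAM1 took 15.9 to 29.1%. In LDHA the middle segment held 78.0 to 83.9% of the read starts of every library. GAPDH was covered more evenly, and in S1 its highest base, base 677 in control and base 1003 in KD, took 3.82 to 4.48%.

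**Figure D4:**
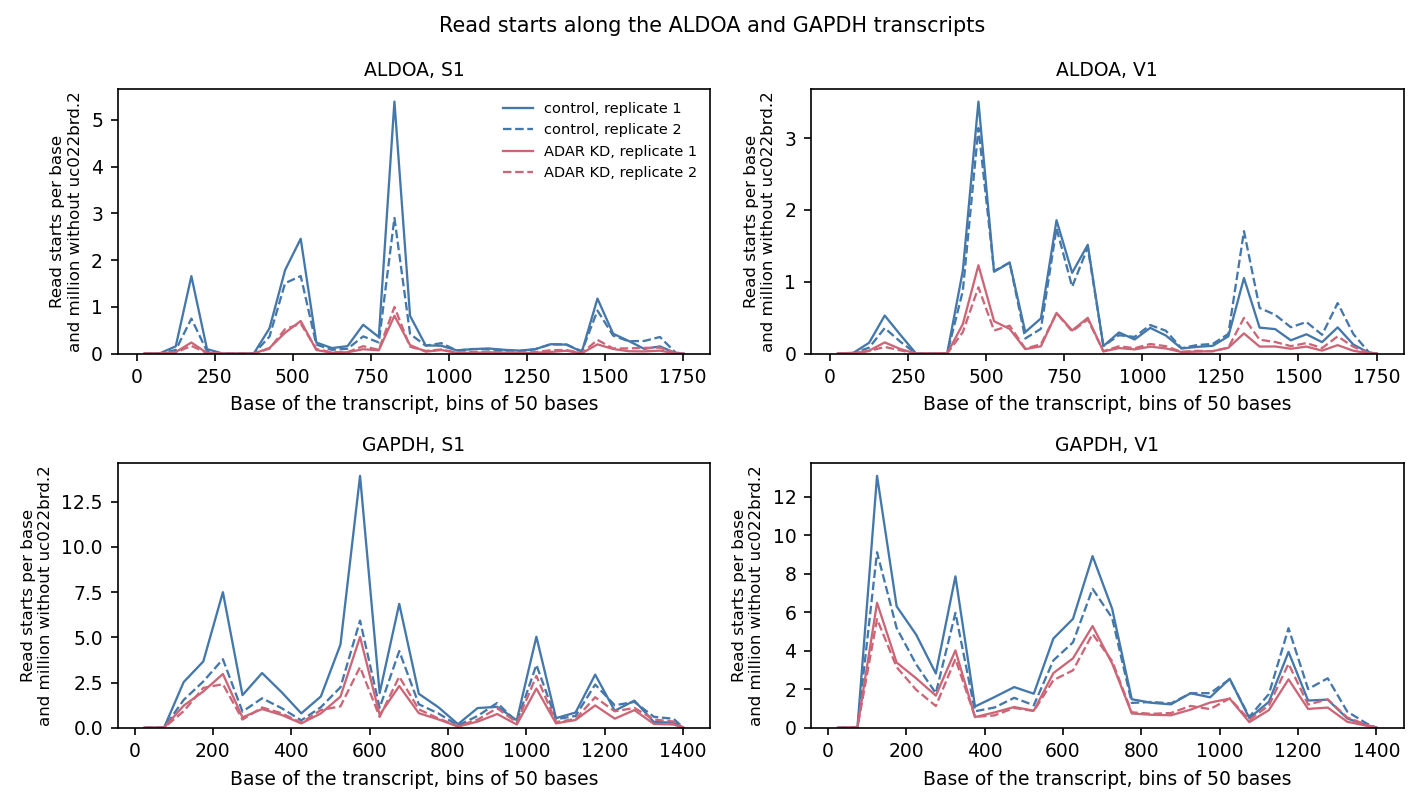
Read starts per base, per 1000000 read starts of the library without those on its most covered transcript, along the ALDOA and GAPDH transcripts, averaged in bins of 50 bases, for S1 and V1; blue lines are control, red lines KD, solid lines replicate 1 and dashed lines replicate 2. In the ALDOA panels the highest bins of control and KD stand at the same places, and both red lines run below the blue lines over most of the transcript.

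For several steps of the pathway the genome holds other isozymes, and their shares of the summed RPKM of a step were compared. ALDOA made up 94.2 and 95.5% of the summed RPKM of ALDOA and ALDOC in PARS-seq control and 88.9 and 90.4% in KD. ALDOC itself was at 18.1 and 11.7 RPKM in control and 9.78 and 8.81 in KD. ALDOA was thus the more abundant of the 2 in both conditions.

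LDHB, the H subunit of lactate dehydrogenase, was at 413 and 422 RPKM in PARS-seq control and 382 and 456 in KD. The share of LDHA in the step was therefore 46.4 and 47.7% in control and 34.9 and 31.1% in KD. In RNA-seq the share was higher in KD, 62.5% against 57.3%. In Ribo-seq it was 35.8 and 35.2% in replicate 1, and 50.8 and 39.5% in replicate 2.

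The remaining steps were each shared differently. HK1, the widely expressed hexokinase, held 43.6 to 70.9% and HK2 17.9 to 56.4% of the summed RPKM of HK1, HK2, HK3 and HKDC1. PFKL held 21.9 to 50.2% of phosphofructokinase, with PFKM the highest in PARS-seq, at 52.0 to 55.2%, and PFKP the highest in RNA-seq, at 46.1 and 45.2%. ENO1 held 77.8 to 95.4% of enolase beside ENO3 and ENO2. PKLR, the pyruvate kinase of liver and red cells, stayed at or below 0.0802% of its step beside PKM2.

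**Figure D5:**
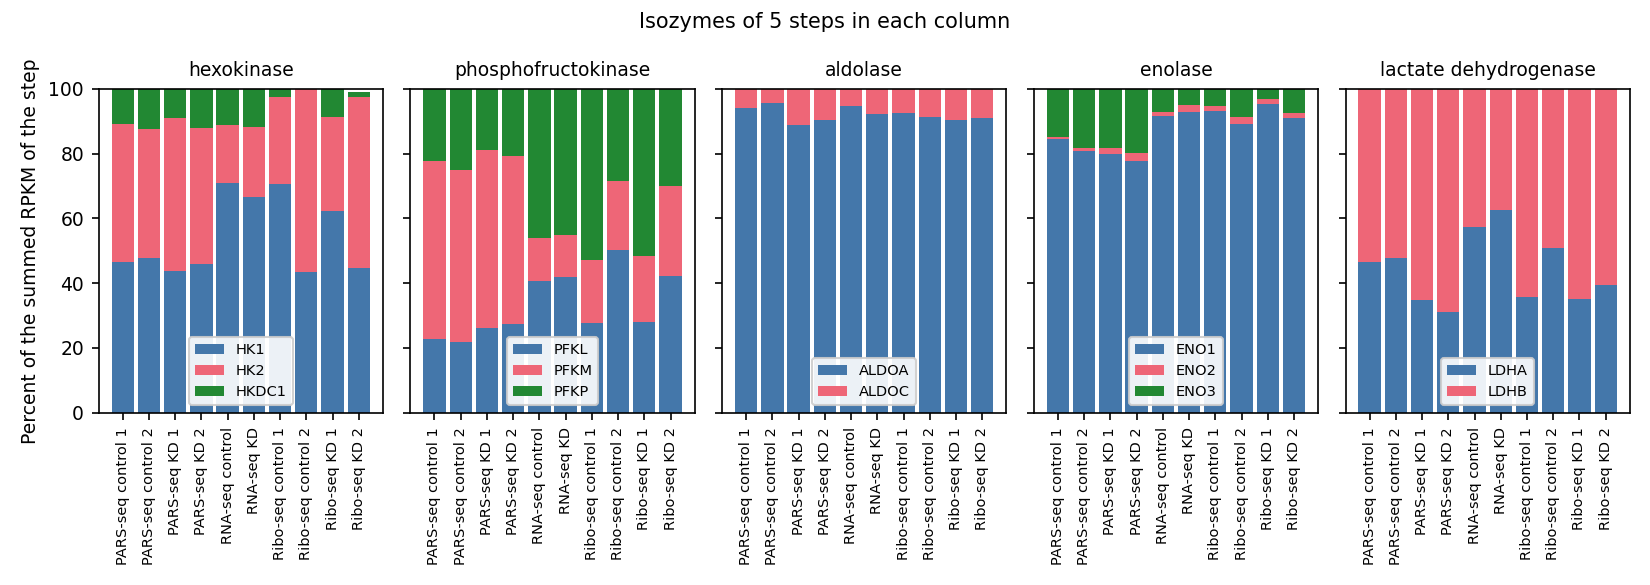
Share of each isozyme in the summed RPKM of 5 glycolytic steps, as stacked bars from 0 to 100%, for the 10 columns; isozymes that stayed below 1% everywhere are not drawn. The LDHA share of the lactate dehydrogenase step is 46.4 and 47.7% in PARS-seq control against 34.9 and 31.1% in KD, and ALDOA dominates its step in every column.

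Other genes of the pathway were counted by the same rule of 1.5-fold in every replicate. Of 14 further genes listed with the glycolytic enzymes and with a mean of at least 1 RPKM, 2 were lower and 2 higher in PARS-seq. The list holds PGAM5 and LDHD, whose products catalyze no step of glycolysis. The shares of all genes were 5.81 and 5.76%. In RNA-seq 2 were lower and 0 higher, beside 4.49 and 3.86% of all genes, and in Ribo-seq 0 passed, beside 1.78 and 2.6%. PKM2, the pyruvate kinase gene of most tissues, was at 989.9 and 811 RPKM in PARS-seq control and 438 and 537 in KD, and at 1319 and 1279 in RNA-seq. BPGM was the other lower gene, with PARS-seq KD-to-control ratios of 0.637 and 0.628. ENO2, with 3.65 and 4.81 RPKM in control and 8.75 and 12.3 in KD, and GAPDHS were higher. BPGM and GAPDHS were chosen after their values were seen. PKM2 was thus lower in PARS-seq, as were ALDOA, GAPDH and LDHA, and level in RNA-seq. The 2 genes lower in RNA-seq were GAPDHS and ENO3, the muscle enolase, at 81.7 RPKM in control against 53.3 in KD. PGAM5 was at 9.47 and 10.1 RPKM in PARS-seq control and 14.5 and 19.8 in KD.

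Of 10 regulators and transporters, 1 was lower and 2 higher in PARS-seq, beside 5.81 and 5.76% of all genes. In RNA-seq 0 were lower and 1 higher, beside 4.49 and 3.86%, and in Ribo-seq 0 and 1, beside 1.78 and 2.6%. SLC2A3, the glucose transporter GLUT3, was higher in each: 53.4 and 43.3 RPKM in PARS-seq control against 144 and 112 in KD, 13.7 against 26.9 in RNA-seq, 14.03 against 30.2 in Ribo-seq replicate 1 and 5.66 against 9.61 in replicate 2. SLC2A1, the glucose transporter GLUT1, was lower in PARS-seq, at 39.9 and 40.9 RPKM in control and 19.0 and 19.8 in KD, and PFKFB2, which sets the level of the phosphofructokinase activator fructose-2,6-bisphosphate, was higher, at 7.40 and 10.3 RPKM in control against 17.4 and 19.2; both were chosen after their values were seen. The 2 glucose transporters thus differed in direction in PARS-seq. BSG and SLC16A3, the chaperone and the lactate exporter of the plasma membrane, had means of 313 and 194 RPKM and did not pass in any assay.

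In gluconeogenesis and glycogen metabolism, 1 of 10 genes was lower and 3 were higher in PARS-seq, beside 5.81 and 5.76% of all genes. In RNA-seq 0 were lower and 1 higher, beside 4.49 and 3.86%, and in Ribo-seq likewise 0 and 1, beside 1.78 and 2.6%. PYGL, the liver glycogen phosphorylase, was at 153 and 136 RPKM in PARS-seq control and 233 and 211 in KD. UGP2, which makes UDP-glucose, PCK2 and GBE1, the glycogen branching enzyme, were chosen after their values were seen; their PARS-seq KD-to-control ratios were 2.06 and 2.20, 2.26 and 3.02, and 0.320 and 0.407. UGP2 was also the gene higher in RNA-seq and in Ribo-seq. MDH1 and MDH2 did not pass. PCK1, FBP1 and G6PC, which mark gluconeogenesis in liver, had means below 1 RPKM.

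Of 18 genes of the pyruvate and pentose phosphate branches, 3 were lower and 0 higher in PARS-seq, beside 5.81 and 5.76% of all genes. In RNA-seq 0 passed, beside 4.49% of all genes lower and 3.86% higher, and in Ribo-seq 0, beside 1.78 and 2.6%. PGD, an NADPH-forming dehydrogenase, was at 568 and 475 RPKM in PARS-seq control and 179 and 199 in KD, and at 214 and 147 in RNA-seq. TALDO1, transaldolase, was at 288 and 278 RPKM in PARS-seq control and 119 and 160.1 in KD. TKT, transketolase, was at 353 and 271 RPKM in control and 159 and 208 in KD, but passed in replicate 1 only. BRP44, a subunit of the mitochondrial pyruvate carrier chosen after its values were seen, had ratios of 0.480 and 0.451. PGD and TALDO1 thus differed in the direction of ALDOA in both PARS-seq replicates.

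Hypoxia targets and factors were counted last. Of 17 targets outside glycolysis, 3 were lower and 1 higher in PARS-seq, beside 5.81 and 5.76% of all genes. In RNA-seq 0 of these targets were lower and 1 higher, beside 4.49 and 3.86%, and in Ribo-seq 0 passed, beside 1.78 and 2.6%. Their median log2 ratio was −0.41 in PARS-seq, beside 0.04 for all genes, and 0.04 in RNA-seq; 12 of the 17 were below 0 in both PARS-seq replicates and 4 above, beside 36.7 and 44.9% of all genes. PLOD2, a collagen lysyl hydroxylase, was at 134 and 81.7 RPKM in PARS-seq control and 76.3 and 44.8 in KD, while DDIT4 and NDRG1 did not pass. P4HA1 and P4HA2 were the other genes lower in PARS-seq, HILPDA the gene higher there and ANKRD37 the gene higher in RNA-seq, all chosen after their values were seen. Of 8 transcription factors and their partners, 0 were lower and 2 higher in PARS-seq, beside 5.81 and 5.76% of all genes. The counts in RNA-seq were also 0 and 2, beside 4.49 and 3.86%, and 0 passed in Ribo-seq, beside 1.78 and 2.6%. MYC was at 45.7 and 44.7 RPKM in PARS-seq control and 88.8 and 86.3 in KD, and at 112 and 178 in RNA-seq. VHL was the other factor higher in PARS-seq and EPAS1 the other in RNA-seq, both chosen after their values were seen. HIF1A was at 57.7 and 38.9 RPKM in control and 67.6 and 45.04 in KD, and ARNT, its partner, at 68.9 and 75.5 against 66.4 and 66.9. By limma, 0 genes of these lists passed in Ribo-seq.

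The genes most like the set over the 5 ratios were sought among 1546 genes with a mean of at least 50 RPKM, by the Euclidean distance of their log2 ratios from the medians of the 10. The nearest were C12orf57 at 0.151, NDUFB7 at 0.157, CAPZB at 0.160, GNAS at 0.166 and CLIC1 at 0.171, where CLIC1 was listed at 0 in RNA-seq and Ribo-seq and so had ratios of 0. The members themselves lay farther from their own medians, from 0.408 for ENO1 to 2.15 for ALDOA. The medians thus describe no single member closely. The nearest genes lay closer to them than any member did, but they were picked as the closest of 1546 candidates, against 10 members.

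Promoter sequences were compared because many glycolytic genes are known targets of factors that bind ACGTG, the core of the hypoxia response element, or CACGTG, the E-box bound by MYC. CACGTG holds ACGTG on both strands. In the RefSeq windows of GRCh38.p14, all 10 genes were matched, with 15 windows of 250 bases before a start site. ACGTG, or its complement CACGT, was in 10 of the 15 windows and in 7 of the 10 genes, beside 18.5% of 35116 windows and 21.7% of 27305 genes. CACGTG was in 4 windows of 4 genes, HK2, ALDOA, GAPDH and LDHA, beside 6.34% of windows and 7.73% of genes. A gene with several windows has more room for a match than a gene with 1. The 3 genes without a match were PFKL, PGAM1 and ENO1. A match is a run of letters and not a binding site.

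The CACGTG matches of the 3 genes that fell in S1, and 1 match each of HK2 and PGK1 for comparison, are shown with capitals for the motif, on the plus strand of GRCh38.p14. ALDOA has 2 and LDHA 1 further match with ACGTG only, not shown. The ALDOA match shown lies at chr16:30064373-30064402, the GAPDH match at chr12:6535171-6535200, and the LDHA matches at chr11:18394366-18394395 and chr11:18394464-18394493. Of the HK2 matches with CACGTG, the one at chr2:74834964-74834993 is shown, and of the PGK1 matches, which hold ACGTG only, the one at chrX:78104034-78104062.
ALDOA: tggcagggaggcCACGTGatccgagtcccc
GAPDH: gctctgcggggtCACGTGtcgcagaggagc
LDHA, distal: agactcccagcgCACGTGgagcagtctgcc
LDHA, proximal: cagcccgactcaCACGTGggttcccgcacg
HK2: gattgctgcgccCACGTGggagggagcccc
PGK1: gcggcgtgccggACGTGacaaacggaagc
The 4 genes with CACGTG were the 3 that were lower in PARS-seq KD by the 1.5-fold rule and HK2, the 1 that was higher by it. PFKL, which was also higher in both PARS-seq replicates but by less, had no match. Whether the motif goes with a direction was not tested.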

How the data were processed

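The members and gene lists were chosen with earlier results of these data known. A few genes of the lists are not reported here, and sums and shares were taken without them. The authors aligned reads to hg19 with bowtie2 in local mode, kept unique alignments, used coverageBed to count them over RefSeq transcripts, and deposited the result as RPKM. Each PARS-seq RPKM value is the authors' mean over an S1 and a V1 library. The other deposited files hold whole-number read starts per base of UCSC knownCanonical transcripts, for unique reads. Submitters' processing notes name cutadapt and Bowtie2, without versions. Per the file headers, the Ribo-seq columns named without a number are replicate 1, and 0 columns belong to other samples.

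Log2 ratios were computed from RPKM + 1 and counted at 1.5-fold over genes with a mean of at least 1 RPKM. A duplicated symbol (2 entries) was left out, and 25 symbols had turned into dates. Tests used limma 3.58.1 (R 4.3.3) with a mean trend, over all genes or transcripts, two-sided, with Benjamini-Hochberg adjustment at 0.05, and were tested on simulated data. Read starts were summed per transcript, scaled by library totals, and 0.5 was added; a transcript was kept with at least 10 scaled read starts in 2 libraries and a sum of 15 or more. Count-based tests of these sums were not run. Named from each list were isozymes with a mean of at least 10 RPKM, except ADPGK, and the 3 most abundant genes of each other list. PGAM5 was counted as an isozyme by its name. Some genes outside this rule are named as well, among them those in a step's summed RPKM and those chosen after their values were seen. Likeness was sought among genes with a mean of at least 50 RPKM, and the 5 nearest were named. Alternatives were other pseudocounts, filters and scalings, a replicate block and leaving out each library.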

Additional observations from a re-analysis of the deposited data

Results flagged for a closer look

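For 4 of the 10 genes, PARS-seq and Ribo-seq differed between KD and control in opposite directions in both replicates, and the difference between the assays was not tested. The same held for 14.9% of all 11368 genes. Taken relative to the median of all genes, an alternative chosen after seeing the data, it held for 3 of the 10 and 15.7% of all genes, without PFKL, which was at −0.0095 in Ribo-seq replicate 1. PGK1, ENO1 and LDHA were at 0.05 to 0.07 in that replicate. PFKL was higher in KD in PARS-seq, with a mean log2 ratio of 0.28, and lower in Ribo-seq, with −0.21, a difference of −0.48 (−0.4824). PGK1 was at −0.28 in PARS-seq and 0.34 in Ribo-seq, a difference of 0.62 (0.6195). ENO1 was at −0.36 and 0.30, a difference of 0.66 (0.6578), and LDHA at −0.85 and 0.22, a difference of 1.07 (1.0731). Each Ribo-seq value includes the library labelled ADAR_KD replicate 2, in which ADAR was at 44.03 RPKM.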

How the results depend on the processing

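In PARS-seq, the number of members 1.5-fold or more lower and the median of the 10 genes kept their direction with other pseudocounts, relative to all genes and in either replicate. HK2, the 1 gene higher, became 0 with 5 RPKM added and 0 relative to the median of all genes. The RNA-seq median of −0.0061 became 0.0081 relative to all genes. In Ribo-seq, PGAM1, the 1 gene lower, became 0 with 5 RPKM added, an alternative chosen after seeing the data. The cause of these shifts was not tested. HK2 and PGAM1, the lowest of the 10, were the members whose PARS-seq or RNA-seq log2 ratios shifted by at least 0.1 with 5 RPKM added. The paper lists the depth of the PARS-seq libraries, and the depth behind the RNA-seq values is unknown. The count-based tests were set for columns accepted as counts and were not run on the sums of read starts, which hold whole numbers.

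With a replicate block, Ribo-seq called 143 genes in place of 0, and 0 members; S1 called 556 transcripts and 3 members, and V1 1752 and 1 member. The labels give no shared batch, and deviations of same-numbered libraries correlated at 0.808 in Ribo-seq, 0.467 in S1 and 0.399 in V1, with 2 pairs each.

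Without 1 library, S1 called 1 to 5 members and 75 to 2330 transcripts, and V1 1 to 2 members and 584 to 1565 transcripts. S1 with TMM scaling called 2 members. V1 without a filter called 1 member, and on transcripts listed in all 8 libraries it called 435 transcripts, since fewer were tested.

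Log2 differences not called with all libraries turned sign when 1 library was left out, with the lowest and highest value as follows; the cause was not tested. In Ribo-seq these were GPI (−0.57 and 0.31), ALDOA (−0.89 and 0.30), TPI1 (−0.058 and 0.37), GAPDH (−0.65 and 0.52), PGK1 (−0.36 and 1.05), PGAM1 (−2.22 and 0.99), ENO1 (−0.40 and 0.99) and LDHA (−0.29 and 0.74). In S1 they were TPI1 (−1.07 and 0.10) and PFKL (−0.12 and 0.39), and in V1 TPI1 (−0.50 and 0.075) and PFKL (−0.43 and 0.095). Ribo-seq of ENO1 was −0.0068 with quantile normalization. In V1, TPI1 was 0.057 with totals without the most covered transcript, and PFKL 0.098 with those totals and 0.020 with TMM scaling.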

Other observations

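CA9, a carbonic anhydrase induced by hypoxia, differed between the assays more than the glycolytic genes did. It was at 0.0925 to 0.305 RPKM in the 4 PARS-seq columns, but at 82.0 and 90.5 RPKM in RNA-seq and at 32.4 to 66.9 in Ribo-seq. TPI1P2, listed as a pseudogene of TPI1, went the other way, with 40.1 to 78.2 RPKM in PARS-seq and 2.32 and 3.05 in RNA-seq. PARS-seq columns correlated with RNA-seq columns across genes with Spearman's rho of 0.591 to 0.663, and with each other with 0.940 to 0.987; genes are not independent replicates.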
